A study of Mus musculus with 9 samples.

Results

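The 10 genes followed here restrain MAP kinase signalling, and their transcripts were measured while 3T3-L1 cells, a mouse line of fibroblast-like preadipocytes, became lipid-storing adipocytes. They were taken by symbol from the deposited gene tables, which list 19094 genes in all, and comprise the dual-specificity phosphatase genes Dusp1, Dusp4, Dusp5, Dusp6 and Dusp10, the Sprouty genes Spry1, Spry2 and Spry4, and the Spred genes Spred1 and Spred2. All 10 were detected in every sample and passed the filter on low counts. RNA was sequenced at day 0, day 4 and day 8, with 3 replicates per day. Day 0 cells were near-confluent preadipocytes that had not received the induction medium (dexamethasone, the phosphodiesterase inhibitor IBMX and insulin). By day 4 that medium had been replaced, after 2 days, by one with insulin as the only inducer. At day 4 this was changed for fresh insulin medium, in which the day 8 cells stayed for 4 more days. The methods do not say whether day 4 cells were collected before or after that change. No untreated culture kept to day 4 or day 8 was analysed here. Time in culture, density, medium and the time since its last change therefore cannot be told apart from differentiation. All cells come from 1 line, the methods describe samples as mixed RNA without saying from how many cultures, and nothing states that replicates were separate cultures, so the p-values measure the spread between these samples, which may be technical.

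Growth factor receptors activate the kinase ERK through Ras, Raf and MEK, and stress and cytokine signals activate the related kinases p38 and JNK. Active ERK induces its own inhibitors. Phosphatases of the DUSP family remove the phosphates that switch these kinases on, while Sprouty and Spred proteins act further up, between the receptors and Raf. In preadipocytes, ERK activity accompanies the early response to the induction medium, and phosphorylation by ERK is known to lower the activity of the adipocyte regulator PPARγ.

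Both deposited measures are given here. FPKM, a level scaled by the authors to gene length and sequencing depth, is used to compare genes with each other. Log2 fold changes come from edgeR's quasi-likelihood test on RSEM's expected counts, fitted on 13154 genes and all 9 samples. The words rose, fell, higher and lower are used of differences between days with an adjusted p under 0.05 over all genes tested, and upregulated and downregulated for those that also exceeded a 2-fold change. Expected counts summed to between 18216114 (day 0 replicate 2) and 20452144 per sample. The 10 genes had between 78 and 2862 counts in each sample, far above the 3 counts per sample taken as the detection floor, which covers counting error only. The early phase compares day 4 with day 0, the late phase day 8 with day 4, and the whole process day 8 with day 0, so any 2 of these comparisons share the samples of 1 day.

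The labels call the cells of all 9 samples adipocytes, a name that fits the marker genes of the later days and not those of day 0. Of 9 adipocyte markers (Adipoq, Fabp4, Plin1, Pparg, Cebpa, Lpl, Cfd, Lep and Cidec), 9 were upregulated in the early phase, 2 in the late phase and 9 over the whole process, with median log2 fold changes of 8.81, 0.54 and 9.11. At the adjusted p alone 8 of the 9 rose late, and Cidec had a late value of 0.05 (adjusted p = 0.66). Their summed level was 149.0, 143.9 and 144.2 FPKM in the day 0 samples, 5921, 7017 and 8458 FPKM in those of day 4 and 8765, 9573 and 9496 FPKM in those of day 8. On day 0, Lpl made up most of the sum (113.5 to 121.3 FPKM) and Lep was listed at 0 in every sample. Its fitted early and whole-process values, which have no level on day 0 to rest on, lie below the medians given. Fabp4 was the most abundant marker later, at 3314 to 4939 FPKM. Markers of other cell types were close to absent. The 5 macrophage markers (Ptprc, Adgre1, Cd68, Csf1r and Lyz2) summed to 1.94 to 4.02 FPKM, with Cd68 or Lyz2 the most abundant and Adgre1 at 0 in 8 of the 9 samples. Of the 3 that could be tested, Lyz2 alone passed 2-fold, with log2 fold changes of -2.10 early and 1.25 late at 1.80 FPKM or less on average, and it was lower over the whole process (-0.86). The medians of the 3 were -0.03 early, 0.43 late and 0.40 over the whole process. The 5 endothelial markers (Pecam1, Cdh5, Kdr, Tek and Emcn) summed to 0.22 to 0.57 FPKM, and Pecam1, the only one tested, had an early value of 0.09 (adjusted p = 0.847) and was upregulated late (1.01) and over the whole process (1.10) at 0.257 FPKM or less on average.

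The 10 genes followed 3 courses, and their 9 values are drawn in the plot of FPKM by day. In 6 of them (Dusp5, Dusp6, Dusp10, Spry2, Spred1 and Spred2) all day 4 samples lay below every day 0 and day 8 sample, which was the case in 10.6% of the genes tested. In Dusp1 all day 4 samples lay above every other sample, as in 13.3% of the genes tested. In Dusp4, Spry1 and Spry4 the samples of the 3 days followed each other upwards without overlap, as in 7.31% of the genes tested. Each course was read from samples of all days, and the early and late comparisons that follow both rest on the day 4 samples. In RNA of whole cultures, fewer cells that express a gene and less RNA per cell cannot be told apart.

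**Figure D1:**
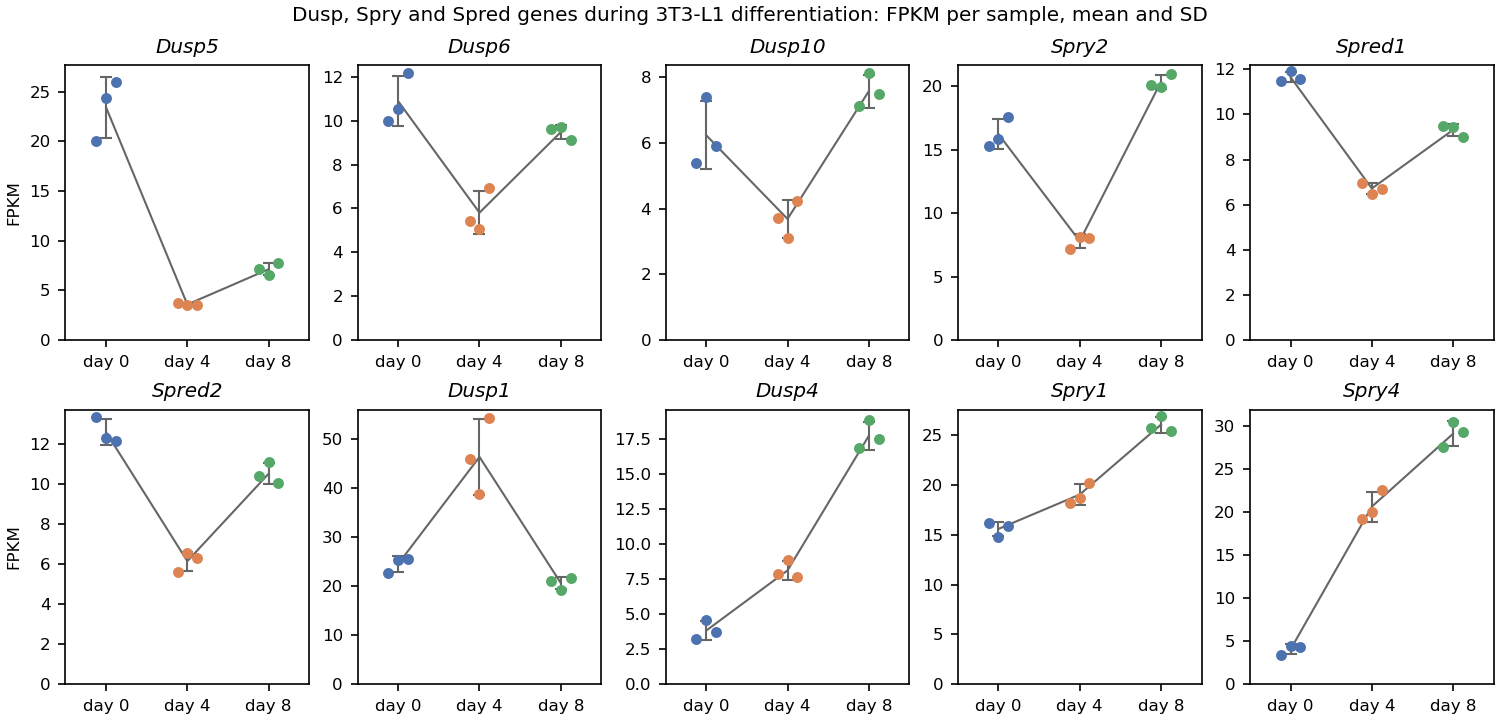
FPKM (vertical axes, from 0, a separate scale for each gene) of the 10 genes at day 0, day 4 and day 8. Points are the 3 samples of a day and lines join the means with their SD; the first 6 panels dip at day 4, Dusp1 peaks there at 38.8 to 54.3 FPKM, and Dusp4, Spry1 and Spry4 climb on both steps.

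The 250 bases before the annotated start were read from the RefSeq promoter table (build GRCm38.p6) for the 8 of the 10 genes it holds. They are shown for Dusp1, the gene with its peak at day 4, and for Dusp5 and Dusp6, phosphatase genes with their lowest level at day 4. Both strands were searched for 6 motifs, and capitals mark matches to the cyclic AMP response element TGACGTCA in Dusp1 and to the serum response element (CArG box) in Dusp5.
Dusp1 (chr17:26508473-26508722, minus strand): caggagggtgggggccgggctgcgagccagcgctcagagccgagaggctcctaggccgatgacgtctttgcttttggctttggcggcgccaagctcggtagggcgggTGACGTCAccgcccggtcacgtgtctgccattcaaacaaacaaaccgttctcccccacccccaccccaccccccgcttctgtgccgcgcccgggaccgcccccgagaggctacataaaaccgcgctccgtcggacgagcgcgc
Dusp5 (chr19:53528895-53529144, plus strand): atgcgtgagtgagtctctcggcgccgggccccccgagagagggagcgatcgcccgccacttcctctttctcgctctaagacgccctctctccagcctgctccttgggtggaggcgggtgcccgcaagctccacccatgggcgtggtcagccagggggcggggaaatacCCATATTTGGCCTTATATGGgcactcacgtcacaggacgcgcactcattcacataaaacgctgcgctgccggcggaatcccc
Dusp6 (chr10:99262981-99263230, plus strand): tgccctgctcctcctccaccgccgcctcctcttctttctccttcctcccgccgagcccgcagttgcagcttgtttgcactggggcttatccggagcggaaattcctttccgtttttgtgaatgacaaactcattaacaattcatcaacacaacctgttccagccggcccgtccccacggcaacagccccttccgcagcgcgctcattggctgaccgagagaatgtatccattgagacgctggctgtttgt

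The Dusp1 window holds 1 cyclic AMP response element, the binding motif of CREB, from 143 to 136 bases before the start. Of all 32851 windows of this length in the table, 1.55% hold one, and none of the other 7 windows of the group does. The Dusp5 window holds a pair of CArG boxes, the binding motif of serum response factor, which abut from 82 to 73 and from 72 to 63 bases before the start. A CArG box is found in 1.47% of all windows and in no other window of the group. The remaining motifs were AP-1 (TGANTCA, in 6.75% of all windows), ETS (CCGGAAGT, in 2.88%), a TATA box (TATAAA, in 12.4%) and the GC box (GGGCGG, in 32.7%). The first 3 of these have no match in the 8 windows, and the GC box is found in 6 of them (Dusp1, Dusp5, Dusp10, Spry1, Spred1 and Spred2), without overlapping the other matches. Dusp6 and Spry2 have no match to any of the 6 motifs. A match describes letters in a window, and factor binding was not measured.

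Dusp1 encodes a nuclear phosphatase that acts on p38, JNK and ERK and is rapidly induced by growth factors, stress and glucocorticoids. It had 22.7, 25.4 and 25.6 FPKM on day 0, 46.0, 38.8 and 54.3 FPKM on day 4 and 21.1, 19.3 and 21.7 FPKM on day 8. The day 4 samples were high and differed most among themselves. Day 8 lay just below day 0 in FPKM, whereas in the TMM-scaled CPM of the test the 2 days overlapped, with 44.2 CPM in day 8 replicate 3 and 42.6 CPM in day 0 replicate 1. The rise of the early phase was 0.98 on the log2 scale (standard error 0.092, adjusted p = 8.2e-08), a 1.98-fold change that falls short of the 2-fold threshold. In the late phase Dusp1 was downregulated (log2 fold change -1.12, standard error 0.093, adjusted p = 7.1e-08). These calls depend on single samples. Without day 4 replicate 3, the highest sample, the late value was -0.996 and narrowly lost its call. The early value exceeded 2-fold without day 4 replicate 2 (1.08), day 0 replicate 2 (1.0022) or day 0 replicate 3 (1.02). Over the whole process the log2 fold change was -0.14 (95% interval -0.34 to 0.07, adjusted p = 0.216), and with library size alone as the scaling it was -0.25 (adjusted p = 0.0321), while limma passed the threshold on both FPKM scales.

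Dusp4 encodes another inducible nuclear phosphatase, which acts on ERK, JNK and p38. It had 3.22, 4.56 and 3.72 FPKM on day 0, 7.85, 8.91 and 7.65 FPKM on day 4 and 16.9, 18.9 and 17.5 FPKM on day 8. The level thus went up by a similar factor on each step and no 2 days overlapped. Dusp4 was upregulated early (log2 fold change 1.16, standard error 0.11, adjusted p = 6.9e-08) and again late (1.17, standard error 0.090, adjusted p = 3.0e-08), and reached 5.02-fold over the whole process (log2 fold change 2.33, standard error 0.10, adjusted p = 5.0e-12). Of the 5 phosphatase genes, it alone was upregulated over the whole process. With limma on log2(FPKM + 1) the early value was 0.93 and under 2-fold.

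Dusp5 encodes a nuclear phosphatase specific to ERK, and no other of the 10 genes moved as far down. It had 20.01, 24.3 and 26.0 FPKM on day 0, 3.70, 3.53 and 3.48 FPKM on day 4 and 7.11, 6.53 and 7.73 FPKM on day 8. The day 4 samples were 6.25-fold below day 0 (log2 fold change -2.64, standard error 0.12, adjusted p = 7.2e-12). Part of this was regained by day 8, which stayed 3.04-fold below day 0 (log2 fold change -1.60, standard error 0.11, adjusted p = 9.8e-10). The late rise was 2.06-fold (log2 fold change 1.04, standard error 0.13, adjusted p = 8.9e-06). It was under 2-fold without day 8 replicate 3 (0.99), with library size alone (0.99) and with limma on log2(FPKM + 1) (0.83) or log2(FPKM + 0.1) (0.97). The deposited gene model of Dusp5 is 1155 bases long, the shortest of the 10.

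Dusp6 encodes the cytoplasmic phosphatase specific to ERK, and its transcript is widely used as a readout of ERK activity. It had 9.97, 10.5 and 12.2 FPKM on day 0, 5.42, 5.07 and 6.92 FPKM on day 4 and 9.61, 9.71 and 9.11 FPKM on day 8. The fall of the early phase (log2 fold change -0.84, standard error 0.10, adjusted p = 1.5e-06) and the rise of the late phase (0.75, standard error 0.10, adjusted p = 1.6e-05) were each under 2-fold and of similar size. Day 8 differed from day 0 by -0.09 on the log2 scale (95% interval -0.29 to 0.11, adjusted p = 0.419). Dusp10, whose product prefers p38 and JNK over ERK, had 5.40, 7.39 and 5.92 FPKM on day 0, 3.72, 3.10 and 4.24 FPKM on day 4 and 7.12, 8.12 and 7.50 FPKM on day 8. It fell early by 0.69 on the log2 scale (standard error 0.12, adjusted p = 1.1e-04) and was upregulated late (1.09, standard error 0.12, adjusted p = 1.9e-06), although limma on log2(FPKM + 1) gave 0.88. Day 8 ended above day 0 (log2 fold change 0.40, standard error 0.11, adjusted p = 0.00499), but in FPKM, unlike in TMM-scaled CPM, day 0 replicate 2 reached into the range of day 8. With limma the adjusted p of this rise was 0.0569 on log2(FPKM + 1) and 0.063 on log2(FPKM + 0.1).

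The Sprouty genes ended higher than they started, by different routes. Spry4, which encodes an inhibitor of signalling from growth factor receptors to Ras and Raf, had 3.39, 4.46 and 4.30 FPKM on day 0, 19.3, 20.1 and 22.6 FPKM on day 4 and 27.6, 30.5 and 29.4 FPKM on day 8. It went from the ninth place among the 10 genes on day 0 to the first on day 8. Spry4 was upregulated 5.35-fold in the early phase (log2 fold change 2.42, standard error 0.086, adjusted p = 5.4e-13) and 7.79-fold over the whole process (2.96, standard error 0.086, adjusted p = 4.6e-14). The late rise was smaller, at 0.54 on the log2 scale (standard error 0.073, adjusted p = 1.6e-05).

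Spry1 encodes a Sprouty protein best known for restraining FGF and GDNF signalling. It had 16.2, 14.8 and 15.8 FPKM on day 0, 18.2, 18.7 and 20.2 FPKM on day 4 and 25.8, 27.0 and 25.5 FPKM on day 8. Its replicates were close together and no 2 days overlapped. The rise was 0.34 on the log2 scale early (standard error 0.061, adjusted p = 1.0e-04), 0.51 late (standard error 0.058, adjusted p = 2.9e-06) and 0.85 over the whole process (standard error 0.059, adjusted p = 2.1e-09), each under 2-fold.

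Spry2, whose product also binds the ubiquitin ligase CBL, took the opposite early course. It had 15.3, 15.8 and 17.6 FPKM on day 0, 7.19, 8.14 and 8.07 FPKM on day 4 and 20.1, 19.95 and 21.0 FPKM on day 8. The early fall was 0.99 on the log2 scale (standard error 0.074, adjusted p = 5.4e-09), a 1.99-fold change just short of the threshold. It passed 2-fold with upper-quartile factors (-1.04), library size alone (-1.06) and limma on log2(FPKM + 0.1) (-1.05), and also without day 0 replicate 1 (-1.03), day 0 replicate 2 (-1.01), day 4 replicate 2 (-1.04) or day 4 replicate 3 (-1.01). Spry2 was then upregulated 2.69-fold in the late phase (log2 fold change 1.43, standard error 0.073, adjusted p = 2.5e-10) and ended 1.35-fold above day 0 (0.44, standard error 0.068, adjusted p = 2.6e-05). On day 0 every Spry2 value lay above every Spry4 value, and on day 4 and day 8 the order of these genes was the reverse.

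The Spred genes encode membrane proteins that bind neurofibromin, which switches Ras off. Spred1 had 11.5, 11.9 and 11.6 FPKM on day 0, 6.96, 6.48 and 6.71 FPKM on day 4 and 9.49, 9.46 and 9.0 FPKM on day 8. Spred2 had 13.3, 12.3 and 12.1 FPKM on day 0, 5.60, 6.53 and 6.27 FPKM on day 4 and 10.4, 11.1 and 10.02 FPKM on day 8. In both genes the 3 days did not overlap, day 4 was lowest and day 8 stopped short of day 0. Spred1 fell by 0.73 on the log2 scale early (standard error 0.049, adjusted p = 1.4e-09) and rose by 0.52 late (standard error 0.050, adjusted p = 3.5e-07), which left it slightly below day 0 (-0.21, standard error 0.048, adjusted p = 9.8e-04). The early value of Spred2 was -0.97 (standard error 0.073, adjusted p = 5.9e-09), a 1.96-fold fall, and its late value 0.82 (standard error 0.074, adjusted p = 1.9e-07). The early fall passed 2-fold without day 4 replicate 2 (-1.03), with upper-quartile factors (-1.02), with library size alone (-1.03) and with limma on log2(FPKM + 0.1) (-1.02). For Spred2 the whole process gave -0.15 (standard error 0.069, adjusted p = 0.0657). That value passed the adjusted p without day 4 replicate 1 (-0.15, adjusted p = 0.0485) and with library size alone (-0.26, adjusted p = 0.00314), a scaling that moved the median of all genes to -0.13, and also with upper-quartile factors and both limma settings.

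Counted over the group, 2 of the 10 genes were upregulated in the early phase (Dusp4 and Spry4), against 9.77% of all genes tested, and 1 was downregulated (Dusp5), against 7.98%. At the adjusted p alone, 4 rose (35.5% of all genes) and 6 fell (33.7%), and the median log2 fold change was -0.71, against 0.02 over all genes. In the late phase, 4 were upregulated (Dusp4, Dusp5, Dusp10 and Spry2), against 4.24% of all genes, and Dusp1 alone was downregulated, against 2.81%. At the adjusted p alone, 9 of the 10 rose late (22.5% of all genes) and 1 fell (22.7%), with a median of 0.79 against -0.01. Over the whole process, 2 were upregulated (Dusp4 and Spry4; 10.3% of all genes) and 1 downregulated (Dusp5; 7.7%), while 5 were higher (34.8%) and 2 lower (36.2%) at the adjusted p alone, with a median of 0.16 against -0.02. As so many genes passed in each comparison, and the group has 10 genes, its counts describe these genes and nothing more. Several values lie close to 2-fold, as the plot of fold changes shows, and the counts of upregulated and downregulated genes depend on that threshold.

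**Figure D2:**
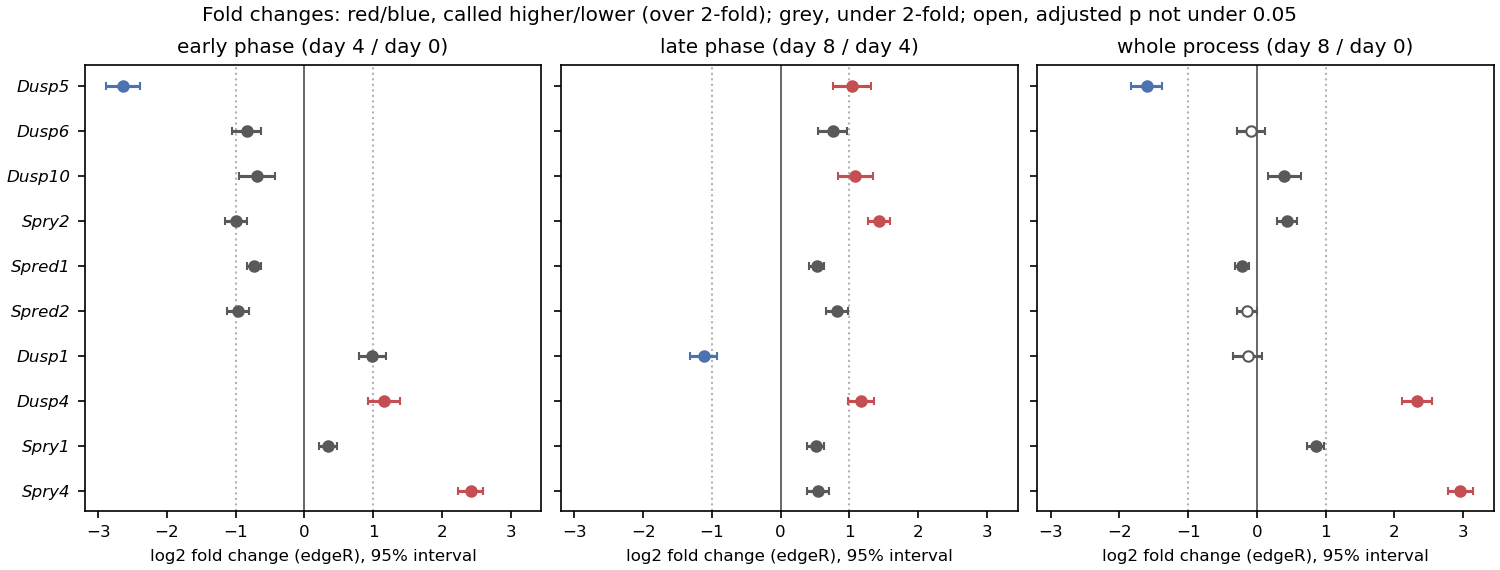
Log2 fold changes (horizontal axis, edgeR, with 95% intervals) of the 10 genes in the early phase, the late phase and the whole process. Dotted lines mark 2-fold, red and blue points genes called higher or lower beyond 2-fold, and open points an adjusted p not under 0.05; late values are positive for all genes but Dusp1 (-1.12), and over the whole process Spry4 (2.96) and Dusp4 (2.33) lie far to the right and Dusp5 (-1.60) to the left.

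The make-up of the group shifted between the days. The summed level of the 10 genes (mean ± SD, n = 3 per day) was 129.0 ± 7.21 FPKM on day 0, 127.9 ± 11.1 FPKM on day 4 and 158.0 ± 2.64 FPKM on day 8. The day 8 sums (155.1 to 160.4 FPKM) lay above all others, of which the highest was 140.5 FPKM, and the day 0 and day 4 sums overlapped. The phosphatase genes summed to overlapping levels on the 3 days (68.9 ± 6.65, 67.6 ± 8.61 and 62.6 ± 0.876 FPKM), the Sprouty genes to 35.9 ± 1.62, 47.5 ± 3.14 and 75.6 ± 1.97 FPKM and the Spred genes to 24.2 ± 0.580, 12.9 ± 0.252 and 19.8 ± 0.753 FPKM. By FPKM, Dusp1 and Dusp5 were the most abundant at day 0, with 24.6 ± 1.60 and 23.4 ± 3.08 FPKM and overlapping samples. Spry4 and Dusp4 were the least abundant and also overlapped. The place of Dusp5 rests on scaling to its short gene model of 1155 bases. In TMM-scaled CPM, which is not scaled to length, its day 0 samples had 21.9 to 28.4 CPM. They lay below every day 0 sample of Spry1, Spry2, Spred1 and Spred2. At day 4, Dusp1 made up 36.1 ± 3.18% of the summed FPKM, and Spry4 and Spry1 followed with overlapping levels. Dusp5 had sunk from 18.1 ± 1.41% to 2.81 ± 0.286% and shared the lowest place with Dusp10. At day 8, Spry4 (18.4 ± 0.615%) and Spry1 (16.5 ± 0.383%) led without overlap, followed by Dusp1 and Spry2, which overlapped (20.7 ± 1.24 and 20.4 ± 0.550 FPKM).

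**Figure D3:**
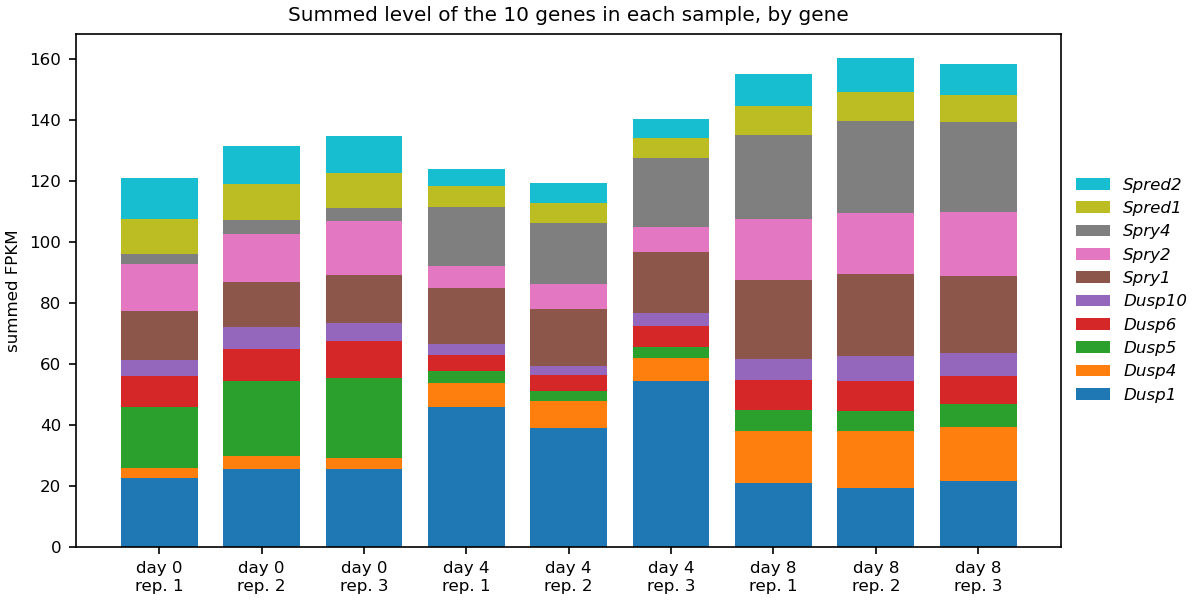
Summed FPKM (vertical axis, from 0) of the 10 genes in each of the 9 samples, with one coloured segment per gene. The Dusp1 segment at the foot is largest at day 4, the Dusp5 segment shrinks after day 0, and the Dusp4 and Spry4 segments widen towards day 8, when the bars reach 155.1 to 160.4 FPKM.

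The summed level of preadipocyte markers was lowest on day 4, although the markers took different courses. The 7 preadipocyte and fibroblast markers (Dlk1, Pdgfra, Pdgfrb, Thy1, Ly6a, Col1a1 and Vim) summed to 5307, 5449 and 5559 FPKM on day 0, 3967, 3999 and 3695 FPKM on day 4 and 4596, 4452 and 4489 FPKM on day 8, with Vim the most abundant on the first 2 days and Col1a1 on day 8, and none at 0. Of the 7 markers, 6 fell and 1 rose (Pdgfra) in the early phase, 4 rose and 2 fell in the late phase, and 3 rose and 3 fell over the whole process, with median log2 fold changes of -0.44, 0.45 and 0.01. Dlk1, Pdgfrb, Thy1 and Col1a1 fell early and rose late. Dlk1, the classical preadipocyte marker, was downregulated early (log2 fold change -2.13) and upregulated late (1.24). Pdgfra took the opposite course (0.84 early, -0.59 late), Vim fell on both steps (-0.24 and -0.48), and Ly6a was downregulated early (-1.90) with a late value of -0.09 (adjusted p = 0.136). Between day 4 and day 8, Col1a1 went from 1299 to 2270 FPKM on average. Of the adipocyte markers given above, 8 of 9 rose on both steps, as did Dusp4, Spry1 and Spry4. The part of the cell mixture in the levels of the feedback genes was not tested.

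The genes were then set beside the rest of their families and of the pathway. These lists follow function and were drawn up with earlier results of these data known, so their counts describe the listed genes only. Of all genes tested, 9.77% were upregulated and 7.98% downregulated early, 4.24% and 2.81% late, and 10.3% and 7.7% over the whole process. At the adjusted p alone, 35.5% rose and 33.7% fell early, 22.5% and 22.7% late, and 34.8% and 36.2% over the whole process. Of the 7 remaining MAP kinase phosphatase, Sprouty and Spred genes, 6 could be tested, and Dusp2, at 0.103 FPKM or less on average, could not. Dusp8, whose product acts on JNK and p38, was downregulated early (1.55, 1.72 and 1.45 FPKM on day 0 against 0.14, 0.17 and 0.19 FPKM on day 4, log2 fold change -3.16, adjusted p = 1.5e-10) and upregulated late (1.48). Dusp9, another ERK phosphatase gene, was upregulated late (log2 fold change 1.20), and Spry3 over the whole process (1.01). Dusp7, which like Dusp6 encodes a cytoplasmic ERK phosphatase, had 21.6 FPKM on average on day 0 and 15.7 FPKM on day 8, a whole-process log2 fold change of -0.35 (adjusted p = 1.4e-04). Spred3 fell in every comparison, by 0.75 on the log2 scale over the whole process. In all, 0 of the 6 were upregulated and 1 downregulated early, 2 and 0 late, and 1 and 1 over the whole process. At the adjusted p alone, 1 rose and 2 fell early, 3 and 2 late, and 3 and 3 over the whole process, with medians of -0.26, 0.34 and 0.15.

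Atypical dual-specificity phosphatases, which lack the domain that binds MAP kinases, were tested for 10 of 11 genes, and Dusp26 was too low. Early, 2 were upregulated (Dusp14 and Dusp22) and 1 was downregulated (Dusp3), late 0 and 1 (Dusp14), and over the whole process 1 (Dusp22) and 1 (Dusp3). By the adjusted p, regardless of fold, 5 rose and 2 fell early, 2 and 2 late, and 3 and 3 over the whole process, with medians of 0.49, 0.06 and 0.20. Dusp14 had 5.0, 5.57 and 4.65 FPKM on day 0, 11.1, 11.1 and 10.8 FPKM on day 4 and 4.30, 4.33 and 5.73 FPKM on day 8, with log2 fold changes of 1.19 early and -1.16 late beside 0.98 and -1.12 for Dusp1. Its day 4 samples stood above all others, as they did in Dusp18 (11.5, 12.9 and 14.3 FPKM on day 4 against 8.34 to 9.13 FPKM on day 0 and 6.73 to 7.24 FPKM on day 8).

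Among the kinase cascade genes examined no gene passed 2-fold. The list holds 6 such genes (Araf, Braf, Map2k1, Map2k2, Mapk3 and the scaffold gene Ksr1). Of these, edgeR called 0 upregulated or downregulated in the 3 comparisons, against 2.81% to 10.3% of all genes tested in each direction. Without the fold threshold, 2 rose and 1 fell early, 3 rose and 0 fell late, and 4 rose and 1 fell over the whole process, with medians of -0.03, 0.15 and 0.25. The largest whole-process value was that of Ksr1 (0.68). Mapk3, which encodes a form of ERK, had 122.1 FPKM on average on day 0 and 111.1 FPKM on day 8. Its whole-process log2 fold change was -0.02 (adjusted p = 0.631). Among 9 adaptor, exchange factor, phosphatase and Ras genes (Shc1, Grb2, Sos1, Sos2, Frs2, Gab1, Ptpn11, Hras and Nras), edgeR called 0 past 2-fold, while 3 rose and 4 fell early, 2 and 3 late, and 2 and 3 over the whole process at the adjusted p alone, with medians of 0.07, -0.05 and 0.02. Frs2, the FGF receptor adaptor, had the largest whole-process value of these (-0.79). Of 9 tested p38 and JNK pathway genes (11 listed, Mapk10 and Mapk13 too low), only Mapk12 passed 2-fold, over the whole process (-1.26), at 0.707 FPKM or less on average. With no limit on fold, 5 of the 9 rose and 1 fell early, 3 rose and 2 fell late, and 3 rose and 1 fell over the whole process, with medians of 0.19, -0.06 and 0.08.

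Several receptor genes passed 2-fold. Of 10 receptor tyrosine kinase genes, 3 were upregulated early, against 9.77% of all genes tested. These were Egfr (log2 fold change 1.80), Fgfr2 (1.33) and Fgfr3 (2.07). In the late phase edgeR called 0 past 2-fold, and over the whole process Egfr (1.77) and Fgfr3 (2.17) were upregulated and Igf1r (-1.45) was downregulated. Counting every gene under the adjusted p, 6 rose and 3 fell early, 2 and 5 late, and 8 and 2 over the whole process, with medians of 0.42, -0.21 and 0.27. The shares over all genes tested were 35.5% and 33.7%, 22.5% and 22.7%, and 34.8% and 36.2%. Egfr went from 4.49 FPKM on average on day 0 to 15.1 FPKM on day 4 and 14.6 FPKM on day 8. Fgfr1, the most abundant of the 10, had 114.8, 160.2 and 126.8 FPKM on the 3 days, and Insr, the insulin receptor gene, 8.10, 9.52 and 8.47 FPKM.

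On the list examined, genes known to be induced through ERK were mostly lower on day 4 than on day 0. It holds 16 genes without the 10 described here, of which 12 fell and 2 rose early at the adjusted p alone. Of all genes tested, 33.7% fell and 35.5% rose, and the median log2 fold change was 0.02, against -1.11 for the list. On the list, 2 were upregulated early (Fos and Fosb), against 9.77% of all genes. Another 9 were downregulated (Egr2, Egr3, Ier3, Etv4, Etv5, Phlda1, Ccnd1, Epha2 and Epha4), against 7.98%. Among them, Etv5, an ETS factor gene, had 5.19, 6.73 and 5.76 FPKM on day 0, 2.58, 2.43 and 2.49 FPKM on day 4 and 4.87, 4.83 and 5.05 FPKM on day 8, with log2 fold changes of -1.17 early and 1.02 late. Like Dusp6, it was lower on day 4 than on both other days, as were Ier3 (-2.00 early, 1.35 late) and Phlda1 (-1.81 early, 1.01 late). Late, 8 of the 16 rose and 4 fell, of which 4 were upregulated (Fosl1, Ier3, Etv5 and Phlda1) and 2 downregulated (Fos and Fosb), with a median of 0.37. Over the whole process 2 rose and 11 fell, of which 1 was upregulated, Fosl1 (2.40), and 7 were downregulated, with a median of -0.73. Etv4, another ETS factor gene, had 6.33 FPKM on average on day 0, 0.933 FPKM on day 4 and 0.68 FPKM on day 8, with a late value of -0.42 (adjusted p = 0.102). Fos, like Dusp1, was highest on day 4, with 29.8, 34.3 and 53.4 FPKM on day 0, 105.8, 67.4 and 185.5 FPKM on day 4 and 35.1, 29.8 and 38.4 FPKM on day 8.

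Other inhibitors of receptors, Ras or ERK moved in both directions. Of 13 such genes, 3 were upregulated early and 0 downregulated, 0 and 2 late, and 1 and 0 over the whole process. Irrespective of fold size, 5 rose and 5 fell early, 3 and 5 late, and 5 and 6 over the whole process, with medians of 0.06, -0.08 and 0.03. Errfi1, an inhibitor of the EGF receptor family, had 14.0, 15.8 and 16.4 FPKM on day 0, 103.2, 105.6 and 108.5 FPKM on day 4 and 24.3, 24.9 and 23.7 FPKM on day 8, so that it was highest on day 4 like Dusp1, with larger log2 fold changes (2.85 early and -2.08 late). Rasa3, a Ras GTPase-activating protein gene, was also highest on day 4, with 1.23 early and -1.07 late. Lrig1, another inhibitor of EGF receptors, had 16.9 to 19.5 FPKM on day 0, 90.5 to 94.7 FPKM on day 4 and 90.5 to 99.7 FPKM on day 8. Il17rd, which restrains FGF signalling, fell early (-0.92), and Nf1, which encodes the partner of the Spred proteins, fell early by 0.53 on the log2 scale with a late value of 0.05 (adjusted p = 0.503).

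**Figure D4:**
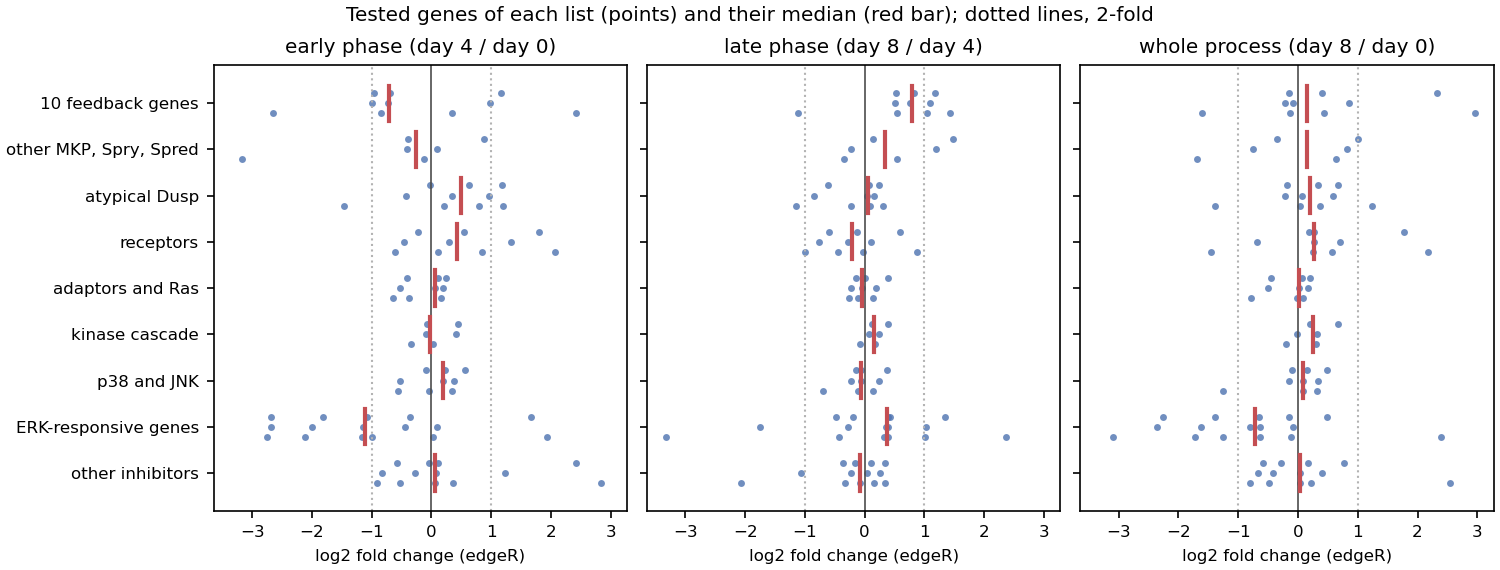
Log2 fold changes (horizontal axis, edgeR) of the tested genes of each list in the early phase, the late phase and the whole process, with 1 point per gene, a red bar at the median and dotted lines at 2-fold. The 10 feedback genes have medians of -0.71 early and 0.79 late and the ERK-responsive genes of -1.11 and 0.37, while the points of the kinase cascade list stay within 2-fold.

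Genes with the most similar course were sought for the gene of each family with the highest FPKM averaged over all 9 samples, among the 9782 other genes whose mean log2 CPM reached 3, by the root mean square difference of centred log2 CPM over the 9 samples. In the Sprouty family this is Spry1, although Spry2 (day 0) or Spry4 (day 4 and day 8) had the higher mean on each single day, and in the Spred family it is Spred2, although Spred1 had the higher mean on day 4. For Dusp1 they were Slc35e4, Inpp5k and Ppp2r3a, at 0.151, 0.153 and 0.153. For Spry1 they were Lpgat1, Arrdc4 and Mta3, at 0.037, 0.046 and 0.060, and for Spred2 they were Fhl2, Enc1 and Wisp1, at 0.106, 0.108 and 0.111.

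Replicates differed more in some of the genes than in others, on day 0 as well as on day 4. On day 0 the coefficient of variation was 17.7% for Dusp4, 16.5% for Dusp10, 14.3% for Spry4, 13.2% for Dusp5 and 10.5% for Dusp6, and 1.92 to 7.45% for the other 5, and on day 8 it was 2.70 to 8.42% for all 10. On day 4, the coefficient of variation was 16.7% for Dusp1, 16.9% for Dusp6 and 15.5% for Dusp10, and 3.23 to 8.48% for the other 7. In Dusp1, Dusp6 and Dusp10 on day 4, replicate 3 was the highest and replicate 2 the lowest. The same order was seen in 7 of the 16 ERK-responsive genes (Egr1, Egr2, Egr3, Fos, Fosb, Ier2 and Ier3), against 17.8% of the 10495 genes with at least 1 FPKM in every sample. Egr1, for example, had 181.9, 139.1 and 242.4 FPKM and Fosb 22.3, 10.9 and 43.6 FPKM in replicates 1, 2 and 3. This count was made after the values were seen, and the part of this spread in the differences between days was not tested. Without day 4 replicate 3, the early log2 fold changes were 0.86 for Dusp1, -0.98 for Dusp6 and -0.79 for Dusp10, and each kept its direction and its adjusted p under 0.05.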

How the data were processed

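The 9 RNA-seq libraries, 3 for each day of 3T3-L1 differentiation, were grouped by their titles. The authors removed poor reads, mapped the rest with HISAT/Bowtie2 and quantified genes with RSEM. They deposited expected counts, which are not normalized, and FPKM, scaled to gene length and depth. The genome build and annotation release are not given in the sources used here, so no gene positions are given for the deposited counts; the promoter positions are those of the RefSeq table. The extraction note among the labels speaks of DRG, which the titles and the paper do not, and the labels and the paper name different sequencing platforms.

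Expected counts were rounded, filtered (filterByExpr), scaled with TMM factors (0.954 to 1.05) and fitted in R 4.3.3 with edgeR 4.0.16 (glmQLFit, glmQLFTest) on all 9 samples with 1 coefficient per day and no covariate. Standard errors are the fold change divided by the square root of F, and p-values were adjusted by Benjamini-Hochberg over 13154 genes. Replicates differed beyond counting noise (chi-square per gene 2.40 to 10.7), so none were merged. The alternatives were other scalings, filters and models, DESeq2 1.42.0, edgeR's exact test, glmTreat, limma 3.58.1 on log2(FPKM + 1) and log2(FPKM + 0.1), a replicate block and leaving out each sample.

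The 10 genes and the lists were chosen with earlier results of these data known. All 10 are named. From the lists any gene may be named, and each list is given by its counts and median, the single tested endothelial marker by its values. Some genes of the pathway lists are not reported here. The 3 most similar genes were taken for the member of each family with the highest FPKM averaged over all 9 samples.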

Additional observations from a re-analysis of the deposited data

How the results depend on the processing

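The direction of each of the 10 genes was kept wherever its adjusted p was under 0.05, in all 3 comparisons and under all 21 alternatives run on single genes. Of 630 alternative fold changes, 599 stayed on their side of the adjusted p, 23 lost it (21 with glmTreat, which tests against a 2-fold change, and Dusp10 over the whole process with both limma settings) and 8 gained it, all for Dusp1 or Spred2 over the whole process.

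The counts past 2-fold moved with the settings. At the adjusted p alone, 4 rose and 6 fell early, 9 rose late, and 5 rose and 2 fell over the whole process, against 2, 1, 4, 2 and 1 past 2-fold. With limma on log2(FPKM + 1), 1 was upregulated early and 2 late. With glmTreat, 1 was upregulated early and 1 late, and 0 were downregulated late. With upper-quartile factors, library size alone or limma on log2(FPKM + 0.1), 3 were downregulated early (Dusp5, Spry2 and Spred2). Leaving out 1 sample gave 2 or 3 upregulated early and 3 or 4 late. It gave 1 to 3 downregulated early and 0 or 1 late, with 0 without day 4 replicate 3, when Dusp1 lost its call. With library size alone or limma on log2(FPKM + 0.1), 3 were upregulated late. Adding a replicate block gave counts of 2 and 1 early, 4 and 1 late and 2 and 1 over the whole process past 2-fold, and no call of the 10 genes changed. Deviations of same-numbered samples correlated by -0.035 to 0.075 (mean 0.031), and those of differently numbered samples by -0.10 to 0.063 (mean -0.015). The best partner had the same number in 12 of 18 cases. These correlations are small, but both measures lean towards same-numbered samples. The main fit left the samples unpaired, and the replicate block gives the counts with pairing. Across all genes, 1285 and 1050 passed 2-fold upwards and downwards early, 558 and 370 late, and 1356 and 1013 over the whole process. Limma on log2(FPKM + 1) gave 708 and 565, 224 and 136, and 753 and 528; glmTreat 936 and 664, 248 and 129, and 1015 and 571; at least 10 counts in every sample gave 831 and 754 early and 310 and 173 late. Library size alone moved the median log2 fold change of the whole process to -0.13, and limma on log2(FPKM + 0.1) to -0.12. The 10 genes had 78 counts or more in every sample, and each day has 3 samples.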

Other observations

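RSEM's length of a gene is weighted over its transcripts in each sample. For the genes with more than 1 transcript in the files it varied little, between 2230 and 2267 bases for Spry1 (4 transcripts) and between 6188 and 6296 bases for Spred1 (2 transcripts). The days overlapped in Spred1. In Spry1 the day 4 lengths (2230 to 2242 bases) lay below those of day 8 (2246 to 2260 bases), while those of day 0 (2239 to 2267 bases) overlapped both. How often other genes differ in this way was not examined.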
